A study of Mus musculus with 9 samples.

Results

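Of 39 amino acid transporter genes measured in 3 groups of SCCVII cells, 1, Slc7a6, was called in any comparison, a share near that of all genes. It fell in IR against NIR, by less than 1.5-fold, and that call was lost when any single array was left out. The 39 genes were the members of the SLC1, SLC3, SLC7, SLC36, SLC38 and SLC43 families, chosen by name among the 18194 genes on the array, with Slc7a11 left out. Where a gene had several probe sets, the brightest on average was used. The name pattern matched 41 genes. The remaining 2, Slc7a6os and Slc36a1os, are separate genes beside a transporter, encode no amino acid transporter and were set apart.

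SCCVII is a mouse line from an oral squamous cell carcinoma that arose spontaneously in CH3 mice, as the labels spell the strain. IR lines came from tumours that parental cells had formed in stroma irradiated before injection, and the labels call them invasive and metastatic even after culture in normoxia. The tumours themselves are called hypoxic. NIR lines came from tumours formed by the same parental cells in stroma that was not irradiated, and are called poorly so. PA is the parental line in standard culture. Each group had 3 arrays. The series calls the 9 samples independent, but does not say whether they were separate lines, tumours or dishes, or whether a line was a clone, so p-values measure only the spread between these samples, which may be technical. Values are RMA values on the log2 scale, and differences are differences of group means on that scale.

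Amino acid transporters carry amino acids across the plasma membrane or the lysosomal membrane. Proliferating tumour cells take up glutamine and essential amino acids through several of them, and leucine, arginine and glutamine entering the cell feed protein synthesis and the growth-promoting kinase complex mTORC1. Some SLC7 proteins reach the cell surface only when bound to a heavy chain, 4F2hc (encoded by Slc3a2) or rBAT (encoded by Slc3a1). When amino acids run short, the kinase GCN2 and the transcription factor ATF4 raise the transcription of several transporters.

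The promoters of Slc7a6, the only transporter called, and of Slc3a2, which encodes its heavy chain, are shown because their proteins work as a pair. Each is the 250 bases before a start listed by RefSeq on GRCm38.p6. The Slc7a6 window lies at chr8:106168604-106168853 on the plus strand, and RefSeq lists another start further downstream. The Slc3a2 window lies at chr19:8713898-8714147 on the minus strand. Both windows lie inside the annotated span of their gene (106168219 to 106198714 for Slc7a6, 8706882 to 8723369 for Slc3a2). Each gene therefore also extends upstream of the window shown. Capitals mark the hypoxia response element core ACGTG, on either strand.
Slc7a6: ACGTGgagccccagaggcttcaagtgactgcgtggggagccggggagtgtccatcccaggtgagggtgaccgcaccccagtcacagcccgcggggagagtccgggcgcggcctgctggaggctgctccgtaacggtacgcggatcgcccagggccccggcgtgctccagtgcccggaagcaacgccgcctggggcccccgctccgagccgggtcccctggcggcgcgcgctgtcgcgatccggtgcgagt
Slc3a2: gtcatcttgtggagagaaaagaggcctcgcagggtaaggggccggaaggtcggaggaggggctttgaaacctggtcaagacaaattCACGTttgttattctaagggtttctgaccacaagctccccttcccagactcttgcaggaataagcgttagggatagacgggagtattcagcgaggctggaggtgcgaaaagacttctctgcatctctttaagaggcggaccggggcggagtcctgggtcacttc
Both windows held ACGTG, which 16.6% of 32851 RefSeq promoter windows held. Neither window shown held TGATGNAA, the core at which ATF4 binds with C/EBP proteins (3.45% of RefSeq windows), on either strand. Neither held TGACNNNGC, the antioxidant response element core (10.2% of RefSeq windows). The window of the downstream Slc7a6 start held ACGTG and TGACNNNGC where they overlap. A match or its absence is a description of these letters, not of a bound factor. Of the 39 genes, 28 had a promoter in the RefSeq table.

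The arrays were alike, with medians from 4.45 to 4.52. The median probe set, at 4.49 over the 9 arrays, is used below as a mark for signal near background. Of the 39 transporters, 24 lay above it, 9 of these above the upper quartile of 6.71, and 15 at or below it. Differences of such dim probe sets are compressed, so a change in those 15 genes could not be measured well. The squamous markers Krt5, Krt14 and Trp63 lay between 3.66 and 5.11 on every array, around the median probe set. The simple keratins Krt8 and Krt18 lay between 11.16 and 12.85. These were picked from a list of 10 squamous and simple epithelial markers, of which 7 were above the median probe set. The mean of that list ranged over the IR arrays from 6.31 to 6.41, over the NIR arrays from 6.29 to 6.33 and over the PA arrays from 6.25 to 6.33. Of 9 fibroblast markers 7 were above the median probe set, and the list mean ranged over the IR arrays from 7.52 to 7.63, over the NIR arrays from 7.33 to 7.75 and over the PA arrays from 7.14 to 7.29. The mean of 14 macrophage markers ranged over the IR arrays from 4.76 to 5.21, over the NIR arrays from 4.72 to 4.87 and over the PA arrays from 4.55 to 4.66. Some markers were called by limma. The fibroblast matrix gene Dcn rose by 1.24 in IR against PA (adjusted p = 0.00265) and by 0.81 in NIR against PA (adjusted p = 0.0391). Lum and the macrophage receptor gene Mrc1 rose by 1.29 (adjusted p = 0.0241) and 0.75 (adjusted p = 0.0156) in NIR against PA, and Krt18 rose in IR by 0.57 relative to NIR (adjusted p = 0.018) and by 0.55 relative to PA (adjusted p = 0.0146). Each of these limma calls was lost without at least 1 single array, except that of Dcn in IR against PA. Their part in the transporter values was not tested. In bulk RNA, fewer cells of a type and less RNA per cell cannot be told apart.

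**Figure D1:**
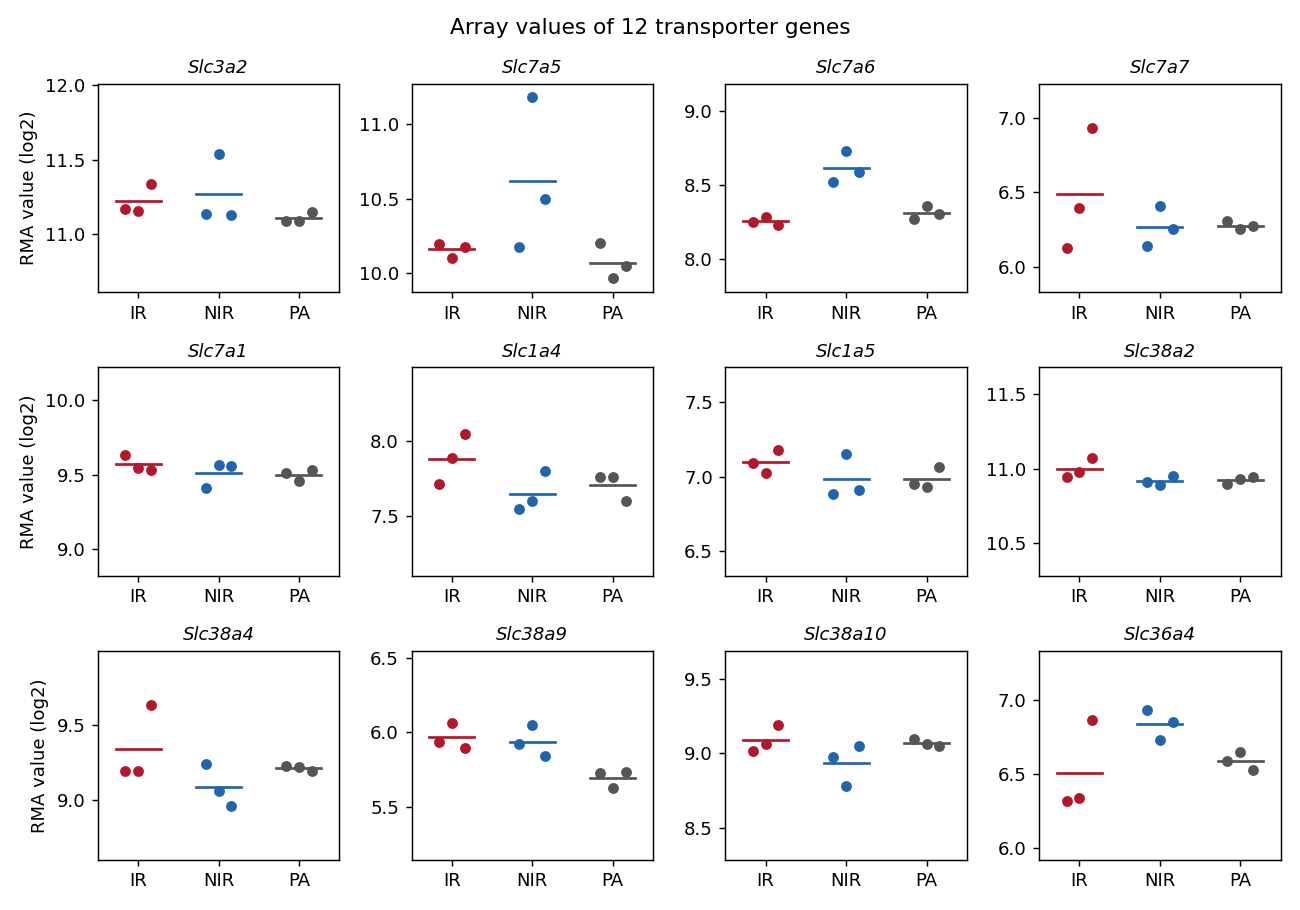
Array values (RMA, log2, vertical axis) of 12 transporter genes in IR, NIR and PA. Points are arrays in the order 1 to 3, horizontal bars are group means, and every panel spans the same range. Slc7a6 in IR lies below all NIR arrays, Slc7a5 is high in NIR2 at 11.18 and Slc7a7 is high in IR3 at 6.93.

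IR against NIR asked what differs when the stroma had been irradiated, since both lines had passed through a tumour. Limma called 1 of 39 transporters, or 2.56%, against 1.65% of all genes tested, so the share lay near the background. The median difference was -0.0046 over the 39 and 0.0014 over all genes, with 19 transporters positive and 20 negative. At an unadjusted p under 0.05 limma gave 4 of the 39, or 10.3%, against 15.9% of all genes. The groups did not overlap for 4 of the 39, against 18.1% of all genes. The 95% interval lay within a 1.5-fold change in either direction for 37 of the 39 (94.9%, against 94.1% of all genes), and for 22 of the 24 above background. It lay within a 2-fold change for all 39, as for 99.4% of all genes. The exceptions at 1.5-fold were Slc7a5 and Slc36a4.

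The light chains that pair with 4F2hc held the call. Slc7a6 (Entrez Gene 330836, chromosome 8, 106168219 to 106198714, GRCm38.p6) encodes a transporter that exchanges cationic amino acids such as arginine for neutral amino acids and sodium. It read 8.25, 8.28 and 8.23 in IR, 8.52, 8.73 and 8.59 in NIR and 8.27, 8.36 and 8.30 in PA. Every IR array lay below every NIR array, and IR overlapped PA. Slc7a6 was 1.28-fold lower in IR than in NIR (difference -0.36, SE 0.0724, 95% interval -0.51 to -0.20, limma adjusted p = 0.0376). With any 1 of the 9 arrays left out, the difference was -0.40 to -0.30 and limma's adjusted p was 0.0511 to 0.0982. With the compared groups alone limma's adjusted p was 0.132, and with the replicate number as a block 0.0509. The gene's second probe set differed by -0.18, in the same direction (limma adjusted p = 0.291). Adjusted p-values of second probe sets, here and below, come from a limma fit over every single-gene probe set.

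Slc7a6 was 0.30 higher in NIR than in PA, which did not pass (SE 0.0724, limma adjusted p = 0.0781), though all NIR arrays lay above all PA arrays. IR differed from PA by -0.05 (95% interval -0.21 to 0.10). By the F test over the groups Slc7a6 was again the only transporter called (limma adjusted p = 0.0412), against 2.34% of all genes. NIR arrays enter both comparisons in which Slc7a6 stood apart, so these are not independent.

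The heavy chain gene Slc3a2 read 11.17, 11.16 and 11.34 in IR, 11.14, 11.54 and 11.13 in NIR and 11.09, 11.09 and 11.15 in PA. The differences were -0.05 between IR and NIR (95% interval -0.28 to 0.18) and 0.11 between IR and PA (-0.12 to 0.34), with no call. Slc7a5 encodes LAT1, the leucine and large neutral amino acid exchanger often abundant in tumours. It read 10.20, 10.10 and 10.18 in IR, 10.18, 11.18 and 10.50 in NIR and 10.20, 9.96 and 10.04 in PA. The NIR mean was raised most by NIR2. NIR3 also lay above every IR and PA array, and NIR1 lay among them.

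Slc7a5 had the widest interval of any transporter. IR minus NIR was -0.46 (SE 0.19, 95% interval -0.88 to -0.04, limma adjusted p = 0.263) and NIR minus PA was 0.55 (0.13 to 0.96, limma adjusted p = 0.256). Slc3a2, Slc7a5 and Slc7a6 each had their highest value in NIR2. That array was the highest of the 9 for 15 of the 39 transporters (38.5%), against 18.5% of all genes. Above the median probe set it was highest for 8 of 24 transporters (33.3%), against 20.6% of all genes there.

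Slc7a7 encodes the other light chain with the cationic exchange activity and is abundant in macrophages. It read 6.13, 6.40 and 6.93 in IR, 6.14, 6.41 and 6.26 in NIR and 6.30, 6.25 and 6.27 in PA. The groups overlapped, IR3 stood highest, and neither IR comparison passed (0.22 against NIR, limma adjusted p = 0.572; 0.21 against PA, limma adjusted p = 0.809). The gene's second probe set differed by only 0.03 and -0.0046 (limma adjusted p = 0.946 and 0.997), with IR3 again highest at 5.90. IR3 was also the highest array for 8 of the 14 macrophage markers, among them the lysozyme gene Lyz2 at 8.25 in IR3 against 4.63 to 6.32 on the other arrays. The part of macrophage RNA in the Slc7a7 value was not tested. Slc7a8 (LAT2) and Slc7a10 (Asc-1) lay near background in all groups, with means of 3.31 and 4.25 in IR, 3.38 and 4.39 in NIR and 3.25 and 4.25 in PA.

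The rBAT group, best known for taking up cystine in kidney and gut, was near background on the arrays. Mean values of Slc3a1, Slc7a9 and Slc7a13 were 3.89, 3.51 and 4.50 in IR, 3.94, 3.60 and 4.48 in NIR and 3.96, 3.70 and 4.46 in PA, and none was called. Slc7a9 differed by -0.20 between IR and PA without overlap (95% interval -0.36 to -0.03, limma adjusted p = 0.435).

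Slc7a1 was the bright member of the cationic SLC7 branch, whose proteins need no heavy chain. It encodes CAT1, a main arginine carrier of dividing cells, and read 9.63, 9.55 and 9.53 in IR, 9.41, 9.57 and 9.56 in NIR and 9.51, 9.46 and 9.53 in PA. The groups overlapped, and the difference between IR and NIR was 0.06 (95% interval -0.10 to 0.21). A second bright Slc7a1 probe set gave -0.29 and was not called (limma adjusted p = 0.174), so the probe sets differed in sign. For Slc7a4 the mean and SD over 3 arrays were 5.93 ± 0.094 in IR, 5.77 ± 0.15 in NIR and 6.02 ± 0.12 in PA, with no call. Slc7a3, Slc7a2 and Slc7a14, and Slc7a12 and Slc7a15, which were listed with this branch but do not belong to it, had group means of 3.17 to 3.84, near background, and the largest difference among them was 0.21 for Slc7a12 between IR and PA (limma adjusted p = 0.596).

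The neutral exchangers of the SLC1 family were both well above background. Slc1a5 encodes ASCT2, a glutamine carrier used by many tumour cells, and read 7.09, 7.02 and 7.18 in IR, 6.88, 7.15 and 6.91 in NIR and 6.95, 6.93 and 7.07 in PA. It differed by 0.12 between IR and NIR (95% interval -0.07 to 0.31). A dimmer Slc1a5 probe set, with a mean of 4.71, gave -0.23 and was not called (limma adjusted p = 0.386). The probe sets thus differed in sign. Slc1a4 encodes ASCT1, which exchanges alanine, serine and cysteine, and read 7.71, 7.89 and 8.05 in IR, 7.54, 7.60 and 7.80 in NIR and 7.76, 7.76 and 7.60 in PA. Its IR and NIR arrays overlapped, and the difference of 0.23 did not pass (95% interval 0.02 to 0.45, limma adjusted p = 0.275).

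The glutamate and aspartate carriers of SLC1, best known in brain and retina, were dim. Slc1a7, Slc1a3 and Slc1a2 had group means of 4.54 to 5.36, and Slc1a1 and Slc1a6 of 3.64 to 4.31. None was called. The largest difference in each comparison was 0.14 for Slc1a1 between IR and NIR (limma adjusted p = 0.455), 0.20 for Slc1a7 between IR and PA (limma adjusted p = 0.761) and -0.16 for Slc1a1 between NIR and PA (limma adjusted p = 0.489).

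Of the SLC38 family, 9 genes were measured and none was called. Slc38a2 encodes SNAT2, which carries small neutral amino acids and is known to be induced when amino acids run short. It read 10.95, 10.98 and 11.07 in IR, 10.91, 10.89 and 10.95 in NIR and 10.90, 10.93 and 10.95 in PA. IR overlapped both other groups, and the intervals of this probe set were narrow, 0.08 against NIR (-0.06 to 0.23) and 0.08 against PA (-0.07 to 0.22). A second bright Slc38a2 probe set gave -0.23 against NIR and a dimmer one 0.20, so the probe sets differed in sign. Neither was called (limma adjusted p = 0.470 and 0.391).

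Slc38a4, a neutral amino acid carrier known from liver and placenta, read 9.19, 9.19 and 9.64 in IR, 9.24, 9.06 and 8.96 in NIR and 9.23, 9.22 and 9.19 in PA. IR3 alone stood above the other groups, and the difference of 0.25 from NIR did not pass (limma adjusted p = 0.318). A second Slc38a4 probe set differed by 0.59 with IR3 again highest, and was not called (limma adjusted p = 0.208). For Slc38a10 the mean and SD over 3 arrays were 9.09 ± 0.092 in IR, 8.93 ± 0.14 in NIR and 9.07 ± 0.021 in PA. Its difference between IR and NIR was 0.16, and that of its next brightest probe set -0.24, neither called.

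Slc38a9 encodes a lysosomal transporter through which arginine signals to mTORC1. It read 5.94, 6.06 and 5.89 in IR, 5.92, 6.05 and 5.84 in NIR and 5.73, 5.62 and 5.73 in PA. Both derived groups lay above PA without overlap and overlapped each other. Neither difference passed: 0.27 for IR minus PA (SE 0.0793, 95% interval 0.10 to 0.45, limma adjusted p = 0.212) and 0.24 for NIR minus PA (0.07 to 0.42, limma adjusted p = 0.222). These comparisons share the PA arrays, and the other 6 Slc38a9 probe sets lay near background. Slc38a1, Slc38a3, Slc38a6 and Slc38a7 had group means of 5.30 to 6.60, and Slc38a5 of 3.28 to 3.45, near background.

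The 4 SLC36 genes were all above the median probe set. Slc36a4, a carrier of proline and tryptophan, read 6.32, 6.34 and 6.86 in IR, 6.93, 6.73 and 6.85 in NIR and 6.59, 6.65 and 6.53 in PA. IR1 and IR2 lay below all NIR arrays and IR3 among them. IR minus NIR was -0.33 (SE 0.127, 95% interval -0.61 to -0.05, limma adjusted p = 0.228), and without IR3 it was -0.51 with a limma adjusted p of 0.0221. Slc36a1, a lysosomal and plasma membrane carrier of small amino acids, had a mean and SD over 3 arrays of 6.25 ± 0.086 in IR, 6.43 ± 0.26 in NIR and 6.29 ± 0.012 in PA. Slc36a3 and Slc36a2 had group means of 4.57 to 5.34, with a largest difference of 0.23 for Slc36a3 between NIR and PA (limma adjusted p = 0.366).

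The SLC43 genes were dim. Slc43a1 and Slc43a2 encode facilitators of leucine and other large neutral amino acids, and Slc43a3 encodes a carrier of purine nucleobases, so it is a member by name only. Their group means were 3.70 to 5.07, and the largest difference was 0.08 in size. The Slc43a2 value was the same to every deposited digit on 8 of the 9 arrays, the only gene of 18194 with that many equal values. At least 2 equal values occurred in 25 of the 39 transporters (64.1%) and in 55.4% of all genes, so the SD of a gene can be too small.

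**Figure D2:**
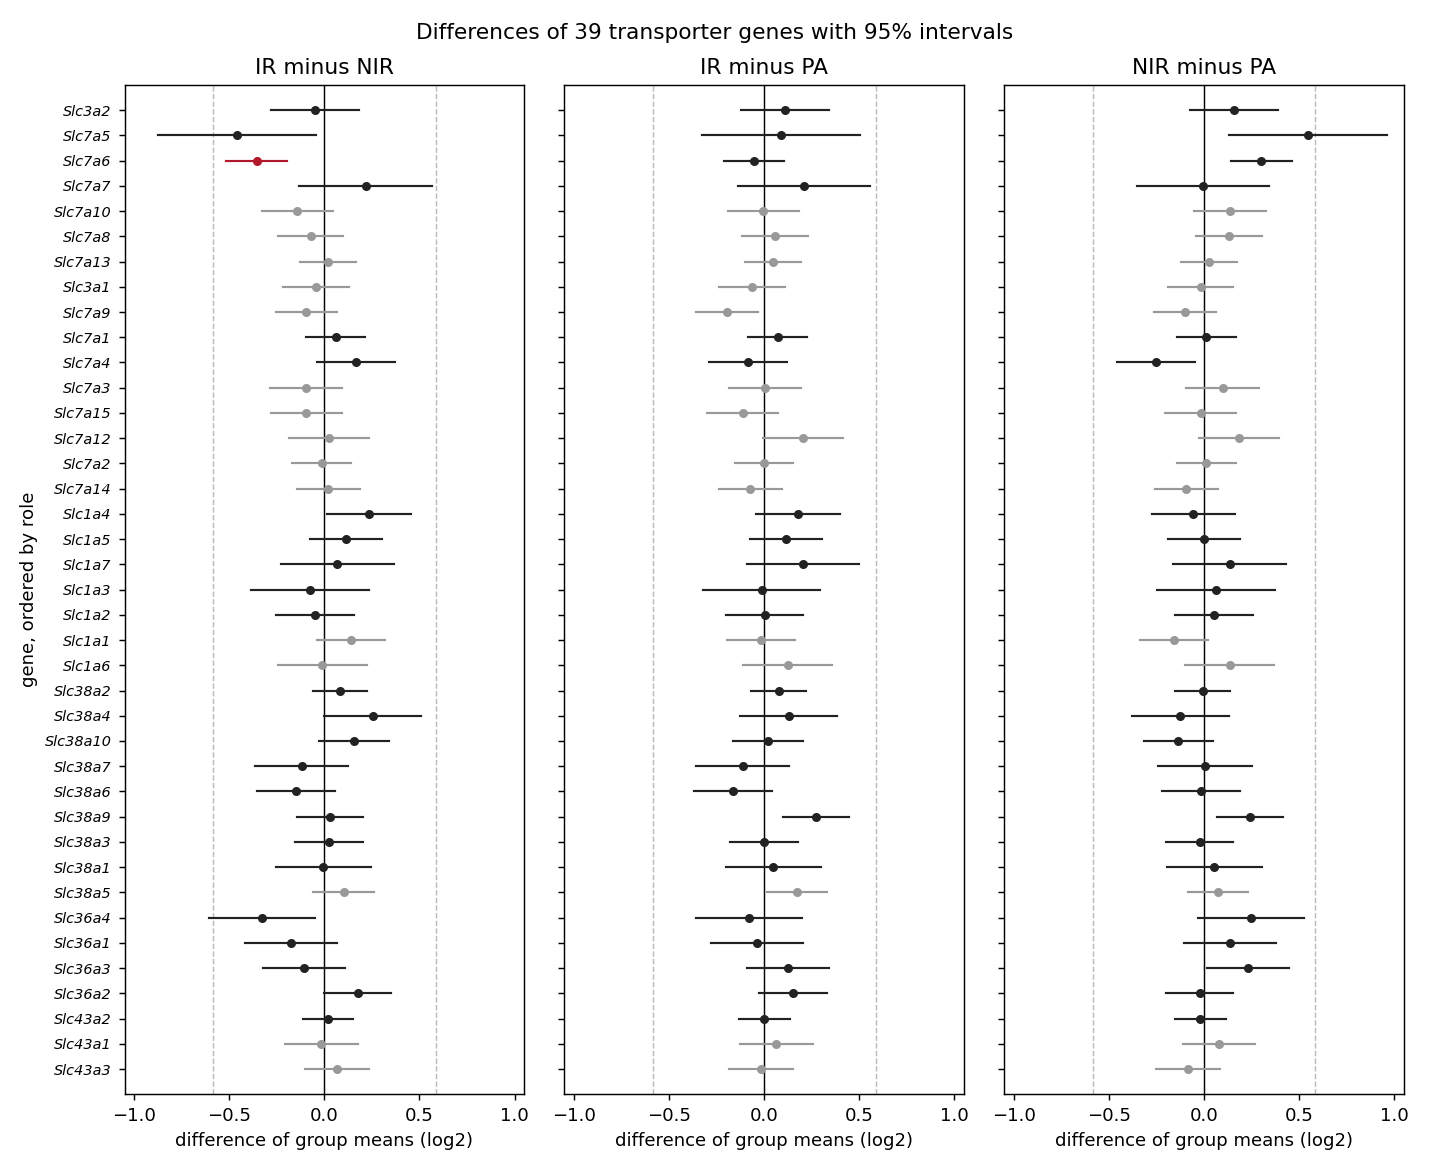
Differences of group means (log2, horizontal axis) for the 39 transporter genes in each comparison, with 95% intervals of the limma fit. Red marks the gene called, black genes above the median probe set, grey genes at or below it, and dashed lines a 1.5-fold change. Slc7a6 in IR minus NIR is the only call, and the intervals of Slc7a5 and Slc36a4 cross a dashed line.

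The comparisons with PA asked how IR and NIR differ from the parental culture. Limma called 0 of 39 transporters in IR against PA, against 1.06% of all genes, and 0 of 39 in NIR against PA, against 1.3% of all genes. At an unadjusted p under 0.05 limma gave 3 and 5 of the 39, or 7.69% and 12.8%, against 8.59% and 12.1% of all genes. The groups did not overlap for 6 of the 39 in IR against PA, where 14.7% of all genes did not, and for 5 in NIR against PA, where 15.5% did not. The 95% interval lay within a 1.5-fold change for all 39 genes in IR against PA, where it did for 96.5% of all genes, and for 38 in NIR against PA, where it did for 95.2%, the exception being Slc7a5. These counts include the 15 genes near background. Median differences were 0.020 and 0.012. Both comparisons share the PA arrays.

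**Figure D3:**
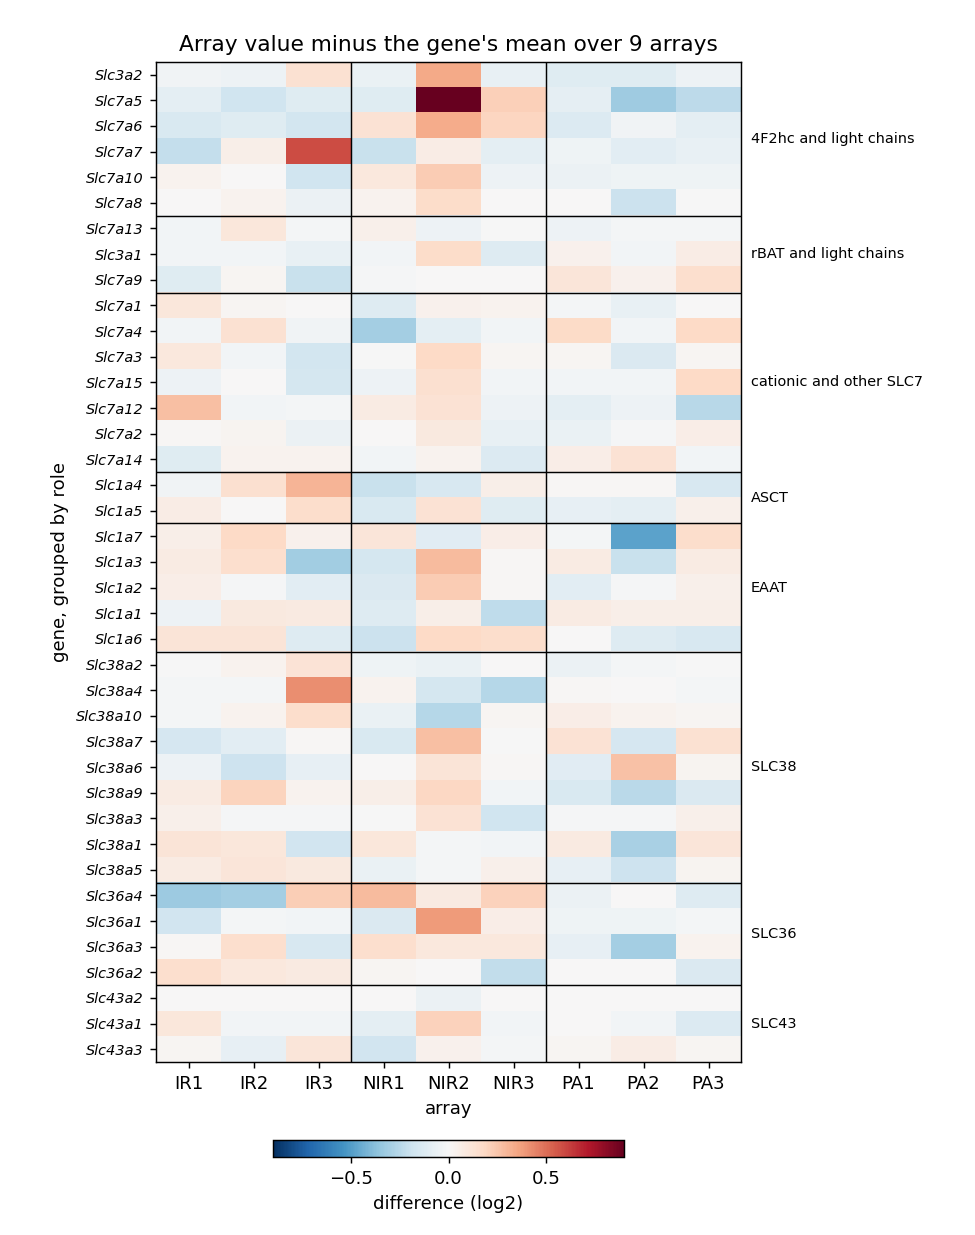
Each array's value minus the gene's mean over the 9 arrays (log2, colour scale) for the 39 transporter genes in rows, grouped by role, and the arrays in columns. The strongest cells are single arrays, Slc7a5 in NIR2 and Slc7a7 in IR3, and Slc7a6 is the gene whose IR and NIR columns separate with a call.

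The 2 genes named after a neighbouring transporter did not pass either. Slc7a6os encodes a nuclear transport protein and differed by -0.15 between IR and NIR (limma adjusted p = 0.628) and by -0.39 between IR and PA (limma adjusted p = 0.303). Slc36a1os differed by -0.0069 between IR and NIR (limma adjusted p = 0.99).

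Genes around amino acid supply were read from 4 lists, which held 0 or 1 call in each comparison. Over all genes limma called 1.65% in IR against NIR, 1.06% in IR against PA and 1.3% in NIR against PA. Of 23 amino acid transporters of other SLC families, 1 (4.35%, against 1.65% of all genes) fell in IR against NIR, and 0 were called in the other comparisons. It was Slc25a44, a mitochondrial carrier of branched-chain amino acids, which read 6.73, 6.81 and 6.61 in IR against 7.04, 7.19 and 7.06 in NIR (difference -0.38, SE 0.0772, limma adjusted p = 0.0371). In PA it read 6.78, 6.91 and 6.89, below all NIR arrays and overlapping IR (NIR minus PA 0.24, limma adjusted p = 0.216). The call did not survive leaving out any of the 9 arrays, and limma's adjusted p was highest, 0.109, without IR3. The taurine transporter gene Slc6a6 differed by -0.32 (limma adjusted p = 0.123), and the aspartate-glutamate carrier gene Slc25a12 by 0.08.

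Of 33 genes of amino acid sensing by mTORC1 and of the complex itself, 0 were called by limma in any comparison. At an unadjusted p under 0.05 limma gave 9 (27.3%) in IR against NIR, where 15.9% of all genes passed. It gave 0 in IR against PA and 4 (12.1%) in NIR against PA, where 8.59% and 12.1% of all genes passed. Of the 33, 31 lay above the median probe set, and 22.1% of all genes above it passed in IR against NIR. Against PA, 11.1% of all genes above it passed for IR and 16.4% for NIR. Of the 9, 7 were lower in IR and 2 higher. The following genes were named after their values were seen. Deptor and Akt1s1, which encode inhibitory partners of mTORC1, differed by -0.42 and -0.34 between IR and NIR. Rraga and Mlst8, a Rag GTPase and a core subunit, differed by -0.37 and -0.29, and the sestrin gene Sesn1 by 0.33. Limma's adjusted p for these ran from 0.103 for Mlst8 to 0.251 for Sesn1. The other sestrin genes went the other way, Sesn3 by -0.36 (limma adjusted p = 0.182) and Sesn2 by -0.07 (limma adjusted p = 0.778). Sesn3 was dim, with a mean of 4.06. Rptor differed by -0.20 (limma adjusted p = 0.186). NIR lay above PA without overlap for Deptor (by 0.49) and Mlst8 (by 0.24), and below it for Sesn1 (by -0.28). For Akt1s1 and Rraga NIR overlapped PA. IR overlapped PA for each of these genes, with IR minus PA at 0.07 for Deptor and -0.24 for Akt1s1. The list median was 0.0055 between IR and NIR and 0.011 between IR and PA. The lysosomal scaffold gene Lamtor1 and the mTORC1 activator gene Rheb, the brightest of the list, differed by 0.10 and 0.07 between IR and NIR.

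Of 26 genes of the amino acid response through ATF4, 1 (3.85%) rose in IR against NIR, 1 rose in NIR against PA and 0 were called in IR against PA. Over all genes the shares called in those comparisons were 1.65%, 1.3% and 1.06%. At an unadjusted p under 0.05 limma gave 6 (23.1%), 8 (30.8%) and 4 (15.4%) in those comparisons, against 15.9%, 12.1% and 8.59% of all genes. Of the 26, 24 lay above the median probe set, and among all genes above it the shares were 22.1%, 16.4% and 11.1%. Ppp1r15a, a phosphatase subunit that restores translation after stress, read 7.68, 7.62 and 8.20 in IR and 7.20, 7.37 and 7.15 in NIR (difference 0.59, limma adjusted p = 0.0496), and again leaving out any array ended the call, with limma's adjusted p highest, 0.118, without NIR1. Ddit3, the stress-induced factor CHOP, read 8.92, 8.91 and 9.08 in NIR and 8.36, 8.43 and 8.36 in PA (difference 0.59, limma adjusted p = 0.0262). That call was lost without any of the NIR or PA arrays (limma adjusted p up to 0.122, without PA1). Atf4 itself differed by 0.05 between IR and NIR and 0.13 between IR and PA, and the serine synthesis gene Phgdh by -0.12 and -0.02, with no call.

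Of 19 genes for enzymes of glutamine, branched-chain amino acids, arginine and ornithine, 1 (5.26%) fell in IR against NIR and 0 were called against PA. Over all genes limma called 1.65% in IR against NIR, 1.06% in IR against PA and 1.3% in NIR against PA. Odc1, which makes putrescine from ornithine, read 12.05, 12.07 and 12.06 in IR, 12.62, 12.49 and 12.48 in NIR and 12.31, 12.37 and 12.32 in PA. The IR arrays lay below all others, and the difference from NIR was -0.47 (SE 0.0664, limma adjusted p = 0.00902). The call stood with each single array left out, at limma adjusted p up to 0.0414 without IR1. The mitochondrial enzyme genes Got2 and Glud1 differed by -0.22 and -0.05 between IR and NIR, with no call.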

How the data were processed

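Total RNA was extracted with a Qiagen RNeasy kit and biotin-labelled for Affymetrix arrays, per the labels' protocols. The deposited values are log2 RMA expression values, RMA being named in the submitters' processing notes, with settings not given in the sources used here. They were used without further scaling. Of 45100 probe sets, 64 controls were left out, and 34944 named a single gene in the platform annotation. Symbols were updated through Entrez identifiers for 34740. Per gene, the probe set with the highest mean was kept, giving 18194 genes. The number of arrays limits the precision.

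Limma 3.58.1 in R 4.3.3 (lmFit, eBayes, 1 mean per group, all 9 arrays, no covariates, 2-sided) was used, with Benjamini-Hochberg adjustment over all genes and a threshold of 0.05. Intervals are unadjusted 95% intervals of that fit. The fit was tested on simulated data. Figures used matplotlib 3.10.9 in Python 3.11.15.

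The members and lists were chosen with earlier results of these data known. Named genes were those called, the 3 brightest and the most different of each role, and up to 4 called and 2 bright genes of each pathway list. Genes beyond this rule were named after their values were seen. Alternatives covered filters, probe set choice, normalization, weights, the replicate block and each array left out.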

Additional observations from a re-analysis of the deposited data

How the results depend on the processing

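The count of transporters called rested on Slc7a6. In IR against NIR it was 1, the same gene, with dim genes left out, with probe sets averaged per gene, without probe sets that bind several transcripts, over every probe set, after median centring, after a second quantile normalization, and with trend and robust settings. It was 2 with array weights (Slc7a6 and Slc36a4), and 0 at an adjusted p below 0.01, at a 2-fold minimum, in a fit of the compared groups alone and with the replicate block. Leaving out each array gave 0 to 1, the 1 being Slc36a4 without IR3 and never Slc7a6. By the F test the count of 1 became 0 after median centring, with the mean of probe sets, over every probe set, below 0.01 and with the replicate block, and was 0 to 1 without single arrays, the 1 again being Slc36a4 without IR3, so Slc7a6 was lost in all 9. Against PA the count of 0 became 1 with array weights in each comparison, Slc38a9 in IR and Slc7a6 in NIR, and stayed 0 without any single array and with the replicate block. The cause of these changes was not tested. Same-numbered arrays correlated from -0.20 to 0.097 in their deviations from group means. Differently numbered arrays were not compared, so these values cannot decide whether the numbers pair the samples. Of 2307 single differences recomputed, 12 lost a call, all of Slc7a6 (1 of them its second probe set), 4 gained one, 0 reversed a called value, and 188 changed sign without a call. With 3 arrays per group, an interval of a bright transporter reached a median of 0.21 (log2) to either side.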
